A study of Bos taurus with 22 samples.

Results

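The loci described here are 5 genes without a symbol whose counts in the jejunal mucosa were lower in steers infused with casein, out of 27570 genes in the deposited count table, of which 7243 carry no symbol. They are ENSBTAG00000047029, ENSBTAG00000039722, ENSBTAG00000047783, ENSBTAG00000040367 and ENSBTAG00000026611. They were chosen by their counts in the comparison of casein with water in these same steers, so that difference is given below as a description without a test, and testing was limited to the comparison of GLP-2 with BSA. That comparison uses the same steers, so a high value in a GLP-2 steer infused with water enters both the casein difference and the GLP-2 fold change, and it is not fully independent of the choice. As a description of that choice, with a DESeq2 Wald test on all genes 4 of the 5 were among the 7 genes lower with casein past the threshold (adjusted p no higher than 0.05, 0.0321% of 21814 genes). ENSBTAG00000026611 was not among them. The edgeR quasi-likelihood test called 0 of 14096 genes between casein and water (474 at an unadjusted p up to 0.05).

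RNA was sequenced from scraped jejunal mucosa of 22 Holstein steers, with 1 library per steer. All steers received raw corn starch into the abomasum at a daily 3.94 g per kg of BW over 7 d. Control steers (n = 5) were infused with water and injected with the BSA vehicle, GLP-2 steers (n = 5) with water and glucagon-like peptide 2 (100 μg daily per kg of BW), Casein steers (n = 6) with sodium caseinate (1.30 g daily per kg of BW) and vehicle, and Casein + GLP-2 steers (n = 6) with both. Casein steers of both injections (n = 12) are compared with water steers (n = 10), and GLP-2 injected steers (n = 11) with BSA steers (n = 11). Library totals ranged from 8809666 to 28447810 counts, and the deepest library was GLP-2 replicate 3. Levels are CPM (counts scaled to the library size after TMM normalization), given as mean ± SD over steers.

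Sodium caseinate is milk protein that is broken down in the small intestine to peptides and amino acids, which enterocytes take up through peptide and amino acid transporters. Genes without a symbol are gene models that an annotation pipeline has placed on the genome but that have no assigned ortholog name. Many are copies of known genes, members of crowded gene families or short open reading frames. Reads from such models can be split with a near-identical copy, so that their counts are less certain than those of single-copy genes.

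All 5 loci are annotated as protein coding on ARS-UCD1.2, and each of their gene lengths in the table is a multiple of 3, as for models without UTR, and is called coding length here. The table holds no exon or coding coordinates. ENSBTAG00000047029 lies on chromosome 11 from 47179770 to 47180201 on the minus strand. Its coding length of 432 bases equals its span, so it is a single-exon model, and it carries the label of a ribosomal protein S12 domain. ENSBTAG00000039722 lies on chromosome 13 from 43289239 to 43296959 on the plus strand, with a coding length of 936 bases. It is the only locus of the 5 with a description, aldo-keto reductase family 1 member C1-like. ENSBTAG00000026611 spans 26321 bases on chromosome 5 (88093458 to 88119778, plus strand), has a coding length of 1233 bases and carries a sulfotransferase domain label. Neither of the remaining loci has a description or a domain. ENSBTAG00000047783 is on chromosome 2 from 81258751 to 81259773 (plus strand, coding length 414 bases), and ENSBTAG00000040367 is on the same chromosome from 92575447 to 92576061 (minus strand, a single exon of 615 bases).

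The loci differed in how their counts were spread over steers. ENSBTAG00000047029 and ENSBTAG00000039722 had at least 10 counts in all 22 steers. ENSBTAG00000047783 had at least 10 counts in 8 steers, and 7 of these were water steers. The counts of ENSBTAG00000040367 and ENSBTAG00000026611 were held by few steers. The 3 steers with most counts held 34.5% of the counts of ENSBTAG00000047029, 51.0% for ENSBTAG00000039722, 54.8% for ENSBTAG00000047783, 97.9% for ENSBTAG00000040367 and 96.0% for ENSBTAG00000026611. Over the 15905 genes with at least 100 counts, the median share was 27.8%. Only 7 of these genes, including the locus itself, had a share as high as ENSBTAG00000040367, and 9 as high as ENSBTAG00000026611.

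**Figure D1:**
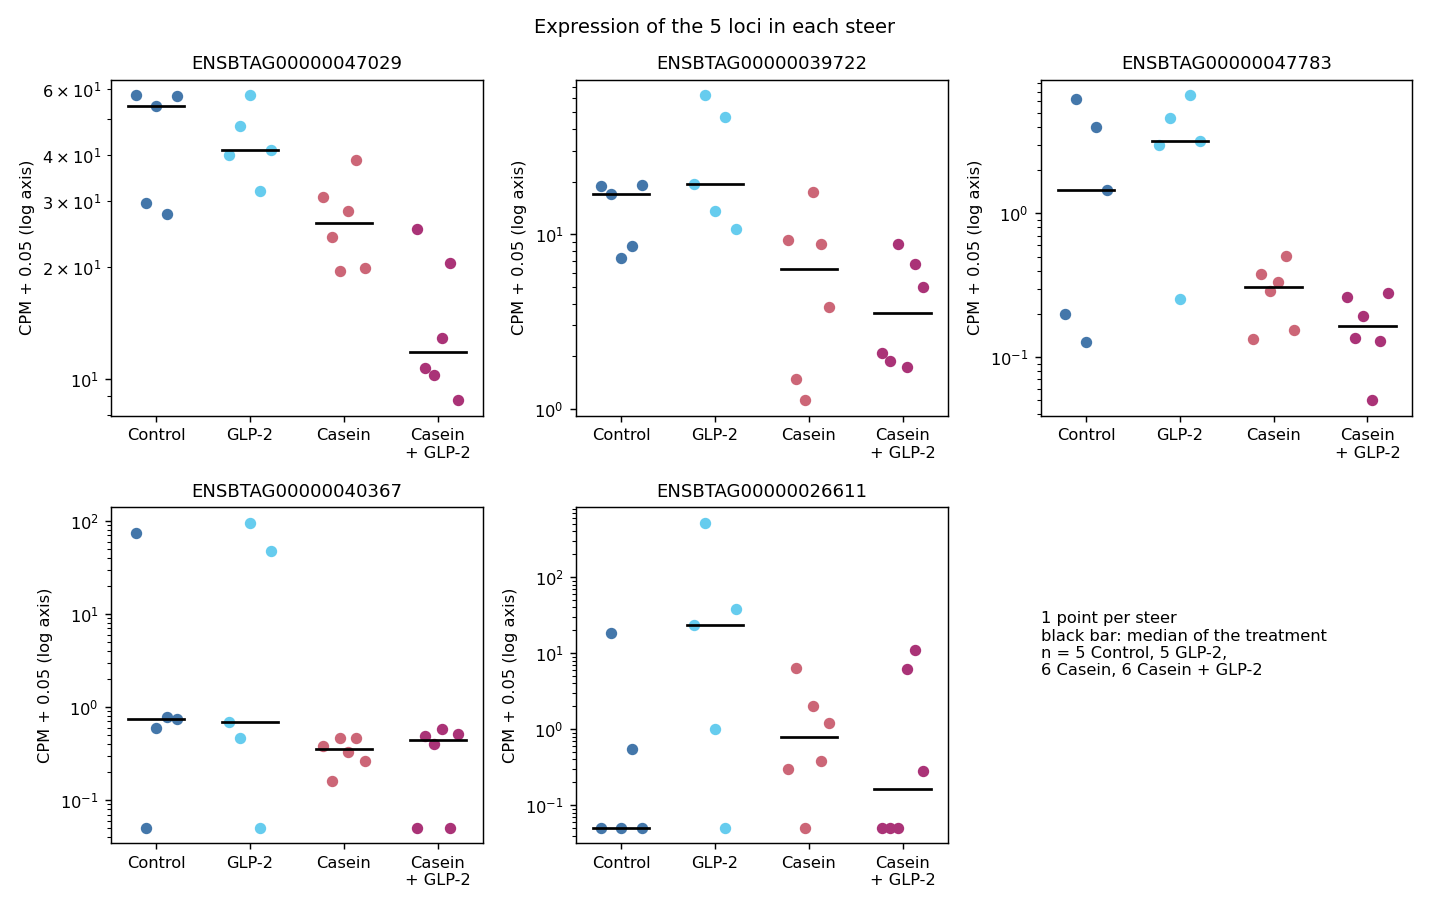
Each panel plots CPM plus 0.05 on a log axis for 1 locus, with 1 point per steer and a black bar at the median of the treatment (n = 5 Control, 5 GLP-2, 6 Casein, 6 Casein + GLP-2). All 22 steers express ENSBTAG00000047029 and ENSBTAG00000039722, whereas ENSBTAG00000040367 stands above 40 CPM in 3 water steers and below 1 CPM in the other steers.

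**Figure D2:**
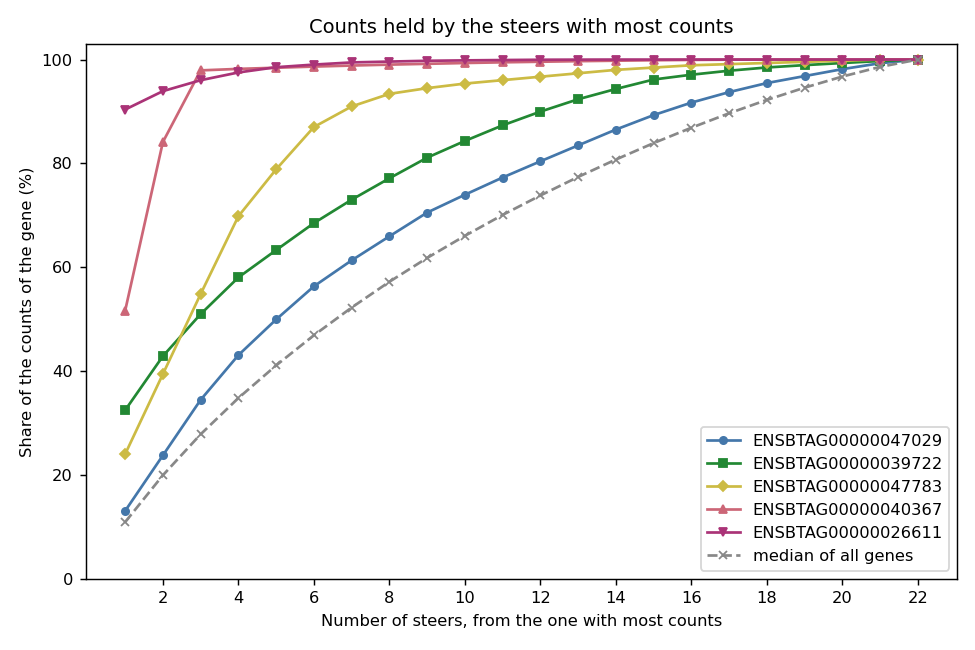
The cumulative percent of the counts of each locus is plotted against the number of steers, ordered from the steer with most counts, with the median over all genes of at least 100 counts as a dashed line. The 3 steers with most counts hold 97.9% and 96.0% of ENSBTAG00000040367 and ENSBTAG00000026611, against 27.8% for the median gene.

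ENSBTAG00000047029, the locus with the ribosomal protein S12 domain label, was expressed at 44.5 ± 12.1 CPM with water and 20.7 ± 9.17 CPM with casein, a 2.14-fold difference in means. The Control steers had 57.7, 29.6, 53.9, 27.7 and 57.3 CPM (replicates 1 to 5), and the GLP-2 steers had 39.8, 47.7, 57.8, 31.9 and 41.1 CPM (replicates 1, 3, 4, 5 and 6). Casein steers ranged from 19.5 to 38.6 CPM with a median of 26.1, and Casein + GLP-2 steers from 8.70 to 25.1 CPM with a median of 11.7. The groups therefore overlapped among vehicle steers, as for all 5 loci. There, 0.0993% of 14096 genes were lower with casein without overlap. Among GLP-2 injected steers the groups did not overlap, and the highest Casein + GLP-2 steer was below the lowest GLP-2 steer. This held for ENSBTAG00000039722 as well, and for 0.255% of the same genes, but casein contrasts chose these loci and nothing is read from it. All 12 casein steers were below the median of the water steers, and 3 of them were above the lowest water steer. On the log2 scale the level was lower with casein in 6 of 6 replicate blocks. Block 2 held no GLP-2 steer and block 6 no Control steer, so their differences mix injection with infusion. This applies to the block values of all 5 loci.

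Proteins of the S12/S23 family sit at the decoding center of the small ribosomal subunit, and in the cytosolic ribosome of animals this protein is RPS23. Of 7 genes with this domain label in the table, 4 had no count in any steer. The other 3 were RPS23, the mitochondrial gene MRPS12 and ENSBTAG00000047029. RPS12 itself, which encodes another protein of the small subunit, carries no domain label in the table. On a per-kilobase scale, RPS23 was at 912.4 CPM per kilobase and ENSBTAG00000047029 at 73.0 as means over the 22 steers, where the length of RPS23 (616 bases) is no multiple of 3 and so is not purely coding. As a percent of the RPS23 level per kilobase of the same steer, ENSBTAG00000047029 was at 11.3 ± 3.55% with water and 6.08 ± 2.46% with casein. The lowest GLP-2 steer was at 8.10% and the highest at 16.4%, while Casein + GLP-2 steers ranged from 2.05% to 10.7%. Whether some of these counts are reads shared with RPS23 was not tested, since no sequence was used here.

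**Figure D3:**
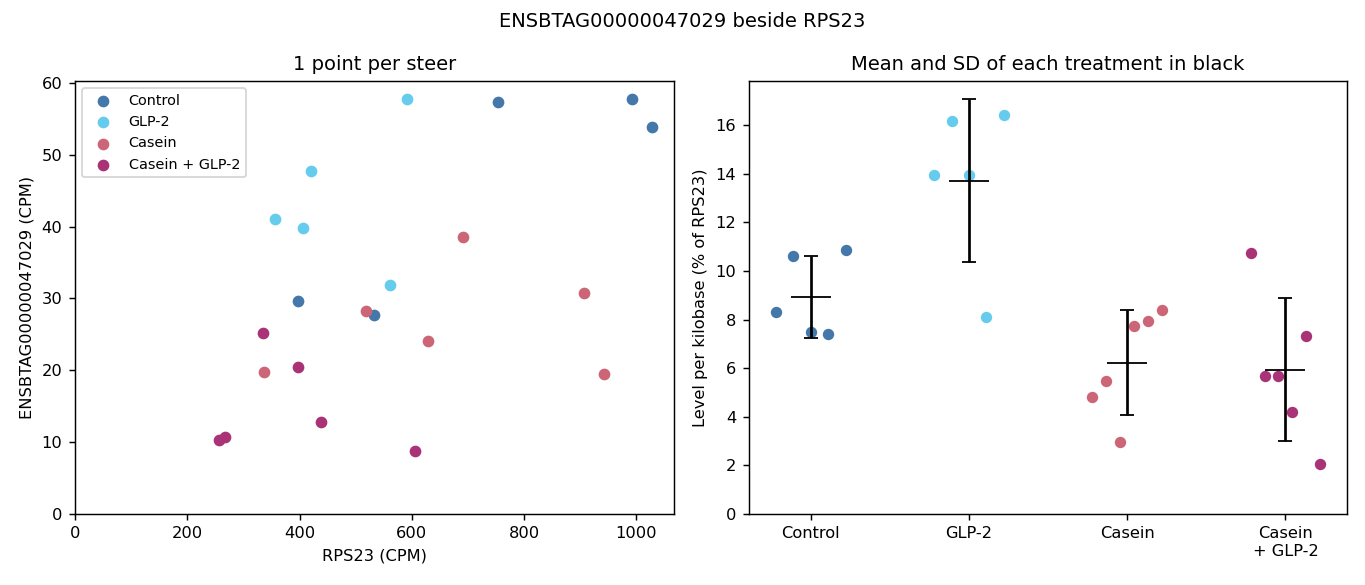
The left panel plots ENSBTAG00000047029 against RPS23 (both in CPM, 1 point per steer), and the right panel plots its level per kilobase as a percent of RPS23 in each steer, with the mean and SD of each treatment in black. The percent averages 8.93 in Control, 13.7 in GLP-2, 6.22 in Casein and 5.94 in Casein + GLP-2 steers.

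Between the injections the locus did not pass the threshold. The mean of ENSBTAG00000047029 was 35.2 ± 14.6 CPM in the 11 BSA steers and 27.8 ± 17.0 CPM in the 11 GLP-2 injected steers. The edgeR quasi-likelihood test gave a log2 fold change of -0.33 with a standard error of 0.315 and an adjusted p of 0.456. RPS23 fell with GLP-2 from 702.6 to 421.4 CPM, with a log2 fold change of -0.74 and an adjusted p of 0.0256 in the same edgeR fit. Of 36 tested genes for proteins of the small ribosomal subunit, 30 fell with GLP-2 past the adjusted threshold and 0 rose, where 8.37% of all genes tested were called lower, with a median log2 fold change of -0.81 against 0.0079 over all 13928 genes tested. RPS12 and RPS21 were among those that fell, with log2 fold changes of -0.64 and -1.11. Markers of other cells moved with the injection, as the summed B cell follicle list (7 of 7 genes found) had a median of 129.6 CPM and a range of 17.2 to 1904 CPM in BSA steers against 26.8 CPM and 14.7 to 48.7 CPM in GLP-2 injected steers. The plasma cell list (4 of 4 found) had medians of 1792 and 625.6 CPM with ranges of 277.3 to 5388 and 190.4 to 2045 CPM. Other lists had higher medians with GLP-2 than with BSA, as villus enterocyte (22933 against 13538 CPM) and goblet cell (1680 against 660.4 CPM, 3 of 5 genes found). The T cell medians were 787.6 CPM with BSA and 701.2 CPM with GLP-2, and the macrophage medians 1009 and 960.5 CPM. No gene of these lists was at 0 over all steers, and their part in the ribosomal result was not tested. Between casein and water, none of the 36 passed in edgeR, and their median log2 fold change was -0.25 against 0.0032 over 14096 genes. Whether the change of ENSBTAG00000047029 with GLP-2 differs from that of RPS23 was not tested.

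The locus sits among immunoglobulin-type genes. ENSBTAG00000050329, a plus-strand model with an immunoglobulin V-set domain, spans the locus from 47169325 to 47182618 and had 51 counts over all steers against 10777 for ENSBTAG00000047029. The libraries were strand specific, but the strand setting of the counting is not given in the sources used here, so reads of the 2 strands cannot be told apart with certainty. The next genes downstream in the coordinates were ENSBTAG00000051611 (V-set, 900 counts) and ENSBTAG00000003408 (C1-set, an immunoglobulin constant-type domain, 81996 counts). ENSBTAG00000003408 fell with GLP-2 (log2 fold change -1.96, standard error 0.647, adjusted p = 0.0462, edgeR), beside the lower medians of the B cell follicle and plasma cell lists given above, whose part was not tested. It was at 357.5 ± 443.0 CPM with water and 202.8 ± 228.7 CPM with casein, with an adjusted p of 0.994 in edgeR, and its Pearson r with ENSBTAG00000047029 over the 22 steers was 0.41. Of the 2 genes before the locus, ENSBTAG00000054154 had 1 count and ENSBTAG00000047185 had none.

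ENSBTAG00000039722, the AKR1C1-like locus, was at 22.4 ± 18.0 CPM with water and 5.62 ± 4.83 CPM with casein, a 3.97-fold difference in means. Enzymes of the AKR1C group reduce carbonyl groups of steroids, prostaglandins and xenobiotics with NADPH. In Control steers the locus was at 18.9, 16.9, 7.21, 8.44 and 19.0 CPM (replicates 1 to 5), and in GLP-2 steers at 19.3, 62.6, 13.5, 47.0 and 10.7 CPM (replicates 1, 3, 4, 5 and 6). GLP-2 replicates 3 and 5 stood above all other steers. Casein steers ranged from 1.06 to 17.4 CPM (median 6.26) and Casein + GLP-2 steers from 1.68 to 8.72 CPM (median 3.48). The ratio of water to casein was 2.03 among vehicle steers and 7.10 among GLP-2 injected steers. Without GLP-2 replicate 3, which alone held 32.5% of the counts, the ratio over both injections was 3.18. The mean of log2 values was lower with casein in 6 of 6 blocks, as it was for ENSBTAG00000047783, while the count was 5 of 6 for ENSBTAG00000040367 and 4 of 6 for ENSBTAG00000026611.

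The GLP-2 injection did not move this locus past the threshold. Its mean was 10.2 ± 6.82 CPM in BSA steers and 16.3 ± 20.1 CPM in GLP-2 injected steers (n = 11 for both). In the edgeR fit this was a log2 fold change of 0.68 with a standard error of 0.591 and an adjusted p of 0.415. Without GLP-2 replicate 3 the log2 fold change was 0.18. In all, 0 of the 2 loci that passed the filter on low counts were called between GLP-2 and BSA by edgeR, 0 at an unadjusted p up to 0.05 and 0 by the DESeq2 Wald test. With the infusion as a covariate, the log2 fold change was -0.48 for ENSBTAG00000047029 (unadjusted p = 0.0343, adjusted p = 0.118, edgeR) and 0.16 for ENSBTAG00000039722 (adjusted p = 0.828, edgeR). Of all 13928 genes, edgeR called 13.5%, and 34.6% had an unadjusted p up to 0.05.

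The table holds 13 other genes with a symbol that starts with AKR1 or a description as aldo-keto reductase, of which 7 could be tested. Between casein and water, 0 of the 7 passed at the adjusted threshold in edgeR, with 3 higher and 4 lower, a median log2 fold change of -0.07 and a range from -0.58 to 0.49. With GLP-2, 1 of the 7 rose past the adjusted threshold and 0 fell in edgeR, which called 13.5% of all 13928 genes tested. This is near the share of all genes, so nothing is read about the family. The gene that rose was ENSBTAG00000037509, placed 96489 bases downstream of ENSBTAG00000039722 on the same strand (log2 fold change 0.88, adjusted p = 0.0307, edgeR). Its description is also AKR1C1-like, and the table assigns both models to the same NCBI gene. ENSBTAG00000037509 was expressed at 151.3 ± 71.0 CPM with water and 144.2 ± 64.6 CPM with casein. Per kilobase it was at 111.9 CPM and ENSBTAG00000039722 at 14.1 CPM as means over all steers. Between both lies ENSBTAG00000039356, with the same description as ENSBTAG00000039722 and 161 counts in all. It was below the filter in the 2-group fits and was at 0.909 ± 0.886 CPM with water and 0.173 ± 0.312 CPM with casein. Its Pearson r with ENSBTAG00000039722 over the 22 steers was 0.62. Reads can be shared between members of this cluster, and the part of such sharing in the counts was not tested. On the other side of the locus, UCN3 had 36 counts in all, and TUBAL3, which encodes a tubulin, was at 64.3 ± 39.4 and 70.8 ± 34.5 CPM with water and casein (r = 0.01 with the locus).

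**Figure D4:**
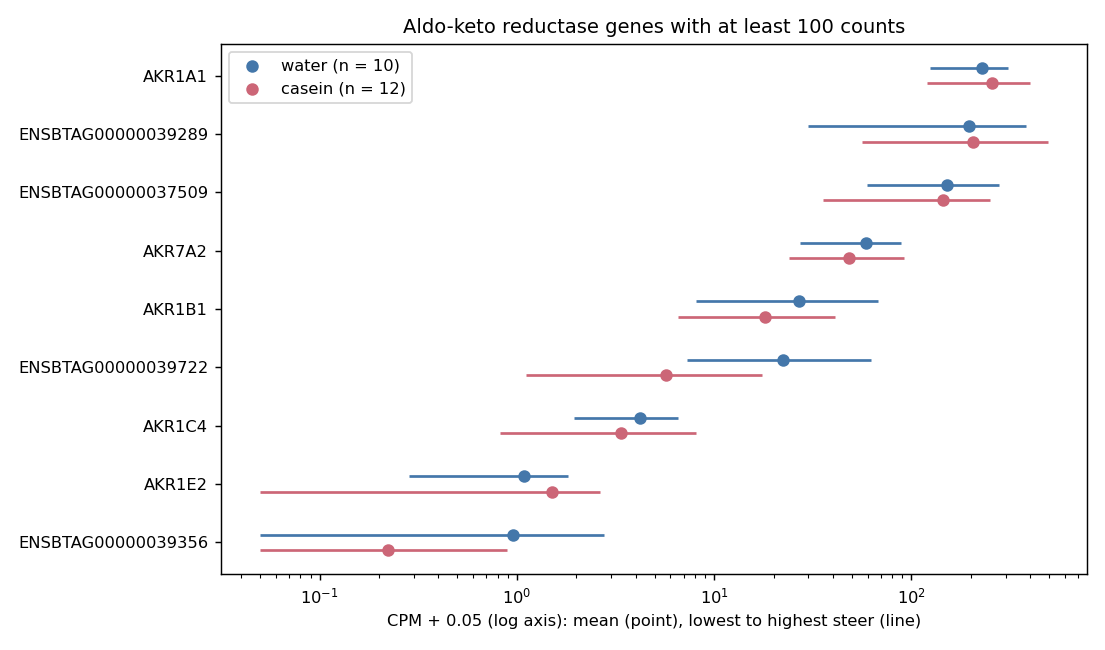
CPM plus 0.05 is plotted on a log axis for the aldo-keto reductase genes with at least 100 counts, with the mean as a point and a line from the lowest to the highest steer, for water (n = 10) and casein (n = 12). ENSBTAG00000039722 averages 22.4 CPM with water and 5.62 CPM with casein, while ENSBTAG00000037509 averages 151.3 and 144.2 CPM.

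ENSBTAG00000047783, which has no description, was at 2.91 ± 2.43 CPM with water and 0.187 ± 0.129 CPM with casein, a 15.6-fold difference in means at low counts. The Control steers had 3, 70, 1, 70 and 18 counts (replicates 1 to 5), and the GLP-2 steers had 37, 109, 5, 68 and 41 counts (replicates 1, 3, 4, 5 and 6). Casein steers had 1 to 11 counts with a median of 3, and Casein + GLP-2 steers 0 to 3 counts with a median of 1.5. In CPM, 7 of the 10 water steers were above all casein steers, while Control replicates 1 and 3 and GLP-2 replicate 4 lay within the range of the casein steers. The highest casein steer, with 11 counts, was Casein replicate 5, the deepest library of its treatment, and was at 0.457 CPM. The 1 steer without a count, Casein + GLP-2 replicate 4, allows up to 0.280 CPM (3 counts of its total, counting error only). The locus is isolated in the annotation, since the nearest genes were TMEFF2, which had 10 counts in all and ends 359160 bases before it, and a gene model of 131 bases with no count, 319432 bases after it.

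ENSBTAG00000040367, also without a description, was at 21.9 ± 36.4 CPM with water and 0.295 ± 0.178 CPM with casein, but the water mean rested on 3 steers. The Control steers had 1465, 0, 7, 13 and 9 counts (replicates 1 to 5), and the GLP-2 steers had 8, 10, 2328, 0 and 622 counts (replicates 1, 3, 4, 5 and 6). These correspond to 73.4 CPM in Control replicate 1, 95.5 CPM in GLP-2 replicate 4 and 47.4 CPM in GLP-2 replicate 6, while the other 7 water steers were at 0.731 CPM or less. Casein steers had 1 to 10 counts (median 3.5) and Casein + GLP-2 steers 0 to 6 counts (median 4.5), with a highest value of 0.531 CPM. The ratio of water to casein was 74.3 for means and 1.94 for medians. The 4 steers without a count each allow up to 0.162 to 0.287 CPM. Among vehicle steers the log2 ratio of casein to control was -5.68, and -0.75 without Control replicate 1. ICOS, a T cell costimulatory receptor 405523 bases away, was at 27.0 ± 10.2 CPM with water and 24.5 ± 16.3 CPM with casein (r = 0.17 with the locus), and CTLA4, an inhibitory T cell receptor, at 6.00 ± 2.26 and 4.09 ± 0.939 CPM (r = 0.44). In Control replicate 1, GLP-2 replicate 4 and GLP-2 replicate 6, CTLA4 was at 7.96, 9.03 and 3.81 CPM and ICOS at 48.4, 30.4 and 12.1 CPM, so that GLP-2 replicate 6 was low for both genes.

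The 2 loci of chromosome 2 were high together in GLP-2 replicate 6, but not in the other steers where ENSBTAG00000040367 was high. Control replicate 1 and GLP-2 replicate 4, with 1465 and 2328 counts of ENSBTAG00000040367, had 3 and 5 counts of ENSBTAG00000047783. GLP-2 replicate 6 had 622 and 41. After the mean of each treatment was removed, the Pearson r between both loci over the 22 steers was -0.64, and the values of ENSBTAG00000040367 fall into separate clusters, so that this r describes few steers.

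ENSBTAG00000026611, the locus with the sulfotransferase domain label, was at 60.2 ± 162.5 CPM with water and 2.30 ± 3.62 CPM with casein. Sulfotransferases transfer a sulfate group from the donor PAPS to small molecules or to sugar chains. The Control steers had 0, 208, 0, 9 and 0 counts (replicates 1 to 5), and the GLP-2 steers had 293, 12588, 23, 0 and 494 counts (replicates 1, 3, 4, 5 and 6). GLP-2 replicate 3 alone held 90.4% of all counts of the locus, and was at 521.2 CPM. Casein steers had 0 to 58 counts (median 9.5) and Casein + GLP-2 steers 0 to 141 counts (median 1). Of the 10 water steers, 4 were above all casein steers and 4 had no count, and 7 of the 12 casein steers were below the water median. The ratio of means between water and casein was 26.1, it was 3.90 without GLP-2 replicate 3, and it was 2.24 among vehicle steers. The vehicle value rested on Control replicate 2, which held 208 of the 217 Control counts. Without that steer the level was higher with casein than in Control (log2 ratio 3.74), and the medians were 0 CPM in Control and 0.746 CPM in Casein steers. The 8 steers without a count allow up to 0.145 to 0.287 CPM each. Per kilobase, the locus was at rank 5 of 34 genes with this domain label by the mean and at rank 20 by the median over steers.

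The fit without a filter on low counts gave the GLP-2 comparison of the remaining 3 loci, and edgeR called 0 of them at the adjusted threshold, where it called 6.93% of 21855 genes. The log2 fold change was 0.44 for ENSBTAG00000047783 (standard error 0.893, adjusted p = 0.766) and 0.85 for ENSBTAG00000040367 (standard error 1.30, adjusted p = 0.685) in edgeR. ENSBTAG00000026611 had a higher mean with GLP-2 (54.6 ± 155.2 CPM) than with BSA (2.63 ± 5.54 CPM). The higher mean rested on GLP-2 replicate 3, a water steer whose value also enters the casein difference that chose the locus. Pooled medians lay closer, at 0.332 CPM (BSA) against 0.944 CPM (GLP-2). Among water steers the median was 0 CPM in Control and 23.4 CPM in GLP-2 steers. Among casein steers it went the other way, at 0.746 CPM in Casein and 0.115 CPM in Casein + GLP-2 steers. In edgeR the log2 fold change was 4.47 (SE 1.42, unadjusted p = 0.00421, adjusted p = 0.0538). Without GLP-2 replicate 3 the log2 fold change was 1.59 (adjusted p = 0.402, edgeR). Leaving out other single steers moved ENSBTAG00000026611 past the threshold in edgeR. The adjusted p was 0.0153 without Control replicate 2, 0.0436 without GLP-2 replicate 4 and 0.0447 without GLP-2 replicate 5. These fits kept GLP-2 replicate 3, so nothing is read from them. For ENSBTAG00000040367 the log2 fold change was 5.07 without Control replicate 1 (adjusted p = 0.0488, edgeR) and -0.55 without GLP-2 replicate 4.

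The genes whose pattern was most like each locus were sought by Pearson r of log2 CPM over the 22 steers among 15086 genes. The steers share treatment, scraping and library, and the genes were picked as the highest of many, so r is a description without a p. ENSBTAG00000026611 had the closest companions. They were SLC7A8, an amino acid transporter (r = 0.92, Spearman rho = 0.88), EPB41L3, which links membrane proteins to the cytoskeleton (r = 0.92, rho = 0.93), and SLC15A1, the peptide transporter PepT1 of the brush border (r = 0.89, rho = 0.87). Without the 2 steers farthest from the median of ENSBTAG00000026611 these r were 0.87, 0.86 and 0.82, and with treatment means removed they were 0.91, 0.91 and 0.88. The 8 steers without a count are tied at the lowest log2 CPM of the locus, and all of them are in these r. In GLP-2 replicate 3, SLC7A8 was at 743.1 CPM against at most 315.5 in the other steers, EPB41L3 at 652.3 against 287.3, and SLC15A1 at 1510 against 758.2. SLC15A1 was at 364.5 ± 457.0 CPM with water and 217.0 ± 146.3 CPM with casein, so that its SD exceeded the mean among water steers. The genes beside the locus on chromosome 5 were less like it, with r = 0.39 for CMAS, an enzyme that activates sialic acid, and r = 0.25 for ST8SIA1, a sialyltransferase.

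**Figure D5:**
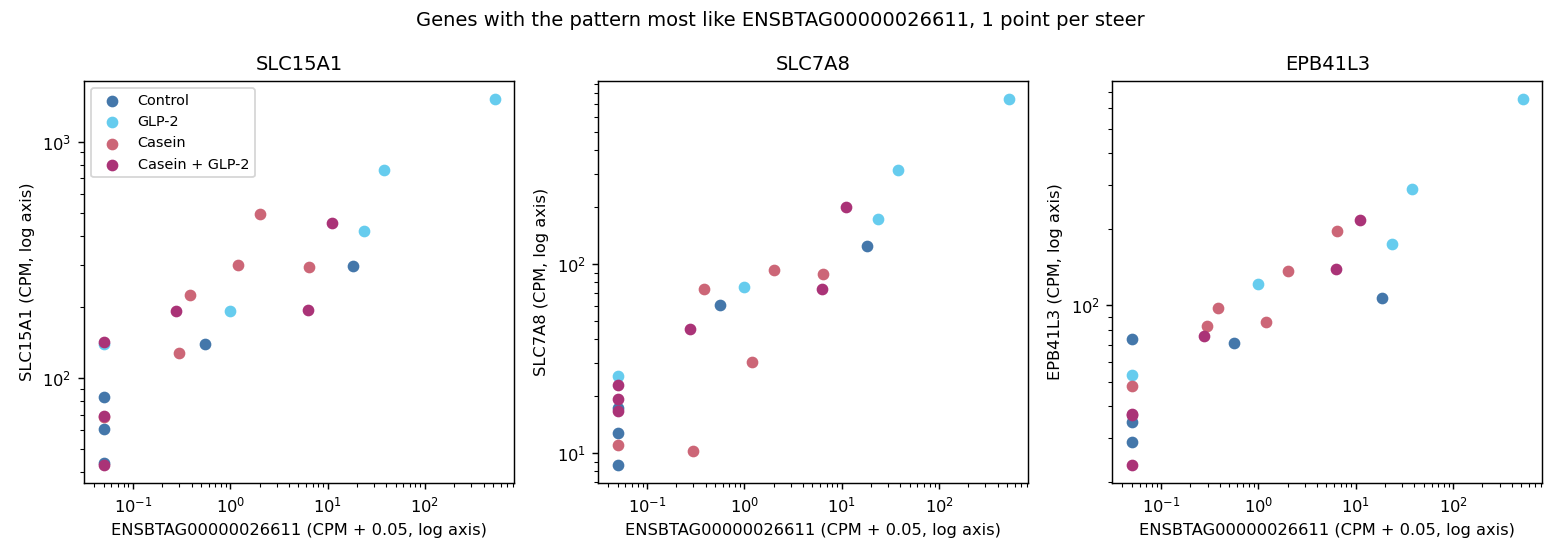
CPM of SLC15A1, SLC7A8 and EPB41L3 is plotted against CPM plus 0.05 of ENSBTAG00000026611 on log axes, with 1 point per steer colored by treatment. All 3 genes are highest in GLP-2 replicate 3 (1510, 743.1 and 652.3 CPM), where ENSBTAG00000026611 is at 521.2 CPM. The 8 steers without a count of the locus stand in a column at 0.05, where SLC15A1 ranges from 42.9 to 142.6 CPM.

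The other loci had looser companions. ENSBTAG00000039722 was most like ZDHHC7, a palmitoyltransferase (r = 0.77, rho = 0.70), ACSS3, an acyl-CoA synthetase (r = 0.75, rho = 0.61), and DPEP1, a membrane dipeptidase (r = 0.75, rho = 0.69). Without the 2 farthest steers these r were 0.69, 0.69 and 0.67. ENSBTAG00000047029 was most like the unnamed ENSBTAG00000030281 (r = 0.79), CDC37, a cochaperone of protein kinases (r = 0.78), and KPTN (r = 0.78), and the r with RPS23 was 0.48. ENSBTAG00000047783 was most like GLIPR2 (r = 0.73, rho = 0.79), DNAJB1, a heat shock cochaperone (r = 0.67, rho = 0.65), and ENSBTAG00000039722 (r = 0.64, rho = 0.56). The last of these pairs had r = 0.22 once treatment means were removed, and both loci were chosen for the same difference. ENSBTAG00000040367 was most like ENSBTAG00000005395 on chromosome X, C11H9orf116 and TAF5 (r = 0.64, 0.62 and 0.59), with rho between 0.40 and 0.48.

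The makeup of the scrapings differed between steers. The enterocyte marker FABP2 was present in every steer (465.8 to 29506 CPM), and FABP6, a marker of the ileum, ranged from 0.173 to 220.3 CPM. SLC10A2, the other ileum marker, did not peak in the same steer. It was at 1.49 CPM in Control replicate 3, where FABP6 was highest. Its own highest value was 3.90 CPM in Casein + GLP-2 replicate 4, where FABP6 was at 1.06 CPM. Both genes were high in Casein replicate 3 (53.4 CPM of FABP6 and 3.72 CPM of SLC10A2) and Control replicate 1 (109.7 and 2.05 CPM). Of 11 marker lists, smooth muscle (6 of 6 genes found, r = 0.51) and plasma cells (4 of 4 found, r = 0.48) had the highest r with ENSBTAG00000047029. The summed level of the smooth muscle list was 29.1 to 1373 CPM with water and 28.8 to 753.5 CPM with casein, and that of the plasma cell list 277.3 to 5388 and 190.4 to 3247 CPM. Among GLP-2 injected steers, where ENSBTAG00000047029 did not overlap, the smooth muscle list had a median of 181.5 CPM with water (92.6 to 776.4) and 50.0 CPM with casein (28.8 to 258.8). The stroma list (5 of 5 found, r = 0.47) had 621.3 CPM (369.9 to 1884) and 209.9 CPM (60.5 to 865.4) there. The enteroendocrine list (4 of 4 found) also had r = 0.47 with ENSBTAG00000047029. Its medians among GLP-2 injected steers were 99.5 CPM with water (83.6 to 196.6) and 68.2 CPM with casein (39.7 to 97.6). It had r = 0.43 with ENSBTAG00000039722 and 0.36 with ENSBTAG00000040367, the highest of the 11 lists for both. For ENSBTAG00000026611 the villus enterocyte list (7 of 7 found) had r = 0.42, with sums of 1132 to 47052 CPM with water and 2864 to 49015 CPM with casein, and GLP-2 replicate 3 was at rank 2 of the 22 steers. The B cell follicle list had r = -0.45 with ENSBTAG00000026611, with sums of 16.9 to 1254 CPM with water and 14.7 to 1904 CPM with casein. No marker of the lists with levels given here was at 0 over all steers, and their part in the results was not tested. In such bulk samples, fewer cells of a type and less RNA per cell cannot be told apart.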

How the data were processed

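RNA-seq of jejunal mucosa was used for 22 steers. The authors aligned reads to ARS-UCD1.2 with HISAT2 (2.0.5), assembled them with StringTie (1.3.3b), assigned them to genes with featureCounts (1.5.0-p3) and deposited the counts per gene as whole numbers, not normalized. How reads with several alignments were counted is not given in the sources used here. Gene length, coordinates, symbols and descriptions are as the authors deposited them. The deposited FPKM values were not used here.

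The members and lists were chosen with earlier results of these data known. Named genes are the 5 loci, for each the 3 genes with the highest Pearson r, its nearest 2 genes on each side and overlapping genes, and the small ribosomal subunit and aldo-keto reductase genes. Genes named beyond these are markers, MRPS12, which shares a domain label with 1 locus, and PAPSS2, both named after their values were seen.

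In R 4.3.3, edgeR 4.0.16 compared pooled groups by the quasi-likelihood test after filterByExpr (minimum count 10) and TMM, with Benjamini-Hochberg adjustment over all genes and a threshold of 0.05, following the study's pooling. Members below the filter were read in a fit of every gene with a count. Log2 CPM used a prior count of 2. DESeq2 1.42.0 was an alternative, as were its size factors, no filter, the replicate block, the other factor as a covariate and leaving out each steer. Fits without a filter and without 1 steer, ratios within each injection without 1 steer, and DESeq2 on all genes were added after seeing the data. The procedure was tested on simulated data. No pair of libraries was identical (0 pairs). Library totals of 8809666 to 28447810 limit loci with few counts, and limits for a count of 0 use 3 counts and cover counting error only. Each steer is a separate animal.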

Additional observations from a re-analysis of the deposited data

Results flagged for a closer look

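For ENSBTAG00000047783, the lowest GLP-2 steer, replicate 4, stood apart from the rest of its treatment, at 0.205 CPM (5 counts) against 2.95 CPM (37 counts) in the next lowest steer, and the gap was 0.738 of the whole range of the treatment on the log2 scale. It was the 1 far-off steer among 20 sets of values (5 loci in 4 treatments, Dixon's test), and chance gives about 1 in 20. In the same steer ENSBTAG00000040367 had its highest value, 95.5 CPM.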

How the results depend on the processing

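Between GLP-2 and BSA, 1881 genes were called by edgeR, 2999 by the DESeq2 Wald test, 689 with the replicate block and 634 to 3516 when 1 steer was left out (without Casein + GLP-2 replicate 3 and without Control replicate 2). Between casein and water edgeR called 0 genes (474 at an unadjusted p of at most 0.05), with 0 also in each of the 22 fits without 1 steer, while DESeq2 called 5 on the filtered genes and 7 on all genes. With 1 steer left out, the log2 fold change with GLP-2 ranged from -0.49 to -0.23 for ENSBTAG00000047029, 0.18 to 0.82 for ENSBTAG00000039722, -0.047 (without GLP-2 replicate 5) to 1.18 for ENSBTAG00000047783, -0.55 (without GLP-2 replicate 4) to 5.07 for ENSBTAG00000040367 and 1.59 to 5.90 for ENSBTAG00000026611 (4.61 without GLP-2 replicate 4 and 4.60 without GLP-2 replicate 5). In the fits with a filter, ENSBTAG00000026611 passed it in 12 of these fits with 4.297 to 4.62. It was past the threshold without GLP-2 replicate 5 and without Casein + GLP-2 replicate 6 (adjusted p = 0.0375 and 0.0452, edgeR), where GLP-2 replicate 3 was kept. The other planned settings keep the filter and gave no value for the 3 loci below it.

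The casein difference (log2 of the ratio of means) of ENSBTAG00000040367 was -6.22, and it was -0.96 for medians and -2.17 with the replicate block. That of ENSBTAG00000026611 was -4.71, and it was -1.32 for medians and -1.16 in vehicle steers only. Its fitted log2 fold change was -4.75 in edgeR and -1.85 in DESeq2. In edgeR it was -3.11 with the replicate block and -3.55 with the injection as a covariate. For ENSBTAG00000047783 the log2 of the ratio of means was -3.96. Over replicate blocks, the mean difference of log2 CPM with 0.5 added was -2.17 for ENSBTAG00000040367 and -2.01 for ENSBTAG00000047783. The added 0.5 shrinks differences at low CPM, so these values are not on the scale of the ratio of means. Leaving out 1 steer gave -1.22 to -1.03 for ENSBTAG00000047029, -2.29 to -1.67 for ENSBTAG00000039722, -4.17 to -3.74 for ENSBTAG00000047783, -6.37 to -5.54 for ENSBTAG00000040367 and -5.32 to -1.96 for ENSBTAG00000026611. Within injections (chosen after seeing the data), leaving out 1 steer gave -6.00 to -0.75 (without Control replicate 1) for ENSBTAG00000040367 in vehicle steers, and -6.50 to -2.41 (without GLP-2 replicate 3) for ENSBTAG00000026611 in GLP-2 injected steers. For ENSBTAG00000026611 in vehicle steers it gave -2.34 to 3.74, and the difference was reversed without Control replicate 2 alone. No other alternative that was run reversed a casein difference. The vehicle medians of ENSBTAG00000026611 with all steers kept also went the other way, at 0 CPM in Control and 0.746 CPM in Casein steers. The cause of these shifts was not tested.

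In CPM, the share of the 3 highest steers was 24.9% for ENSBTAG00000047029, 44.3% for ENSBTAG00000039722, 97.1% for ENSBTAG00000040367 and 92.5% for ENSBTAG00000026611. Of the 15 genes most like a locus, 5 were also found by Spearman rho and 2 with treatment means removed.

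The paper states that body weight was used to sort steers into the replicate blocks. Of 30 pairs from the same block and different treatments, 13 had a correlation above 0.1 after treatment means were removed (mean 0.0331). Of 151 pairs from different blocks and different treatments, 55 had one (mean -0.0064). With the replicate block, the log2 fold change with GLP-2 was -0.36 for ENSBTAG00000047029 and 0.40 for ENSBTAG00000039722, and neither passed the threshold.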

Other observations

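A second group of aldo-keto reductase models lies on chromosome 1, and its counts were looked at after those of the AKR1C1-like locus. ENSBTAG00000051758 had 27 counts in all and was at 0.196 ± 0.228 CPM with water and 0.00738 ± 0.0256 CPM with casein, and ENSBTAG00000040393 had 42 counts and was at 0.181 ± 0.260 and 0.102 ± 0.163 CPM. Neither had enough counts to be tested. AKR1B1, the aldose reductase, was at 26.8 ± 18.1 CPM with water and 18.1 ± 9.90 CPM with casein and had an adjusted p of 0.994 in edgeR.

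GLIPR2, the gene most like ENSBTAG00000047783, ranged from 36.7 to 73.5 CPM in GLP-2 steers and up to 31.5 CPM in Casein + GLP-2 steers. These treatments did not overlap, with casein on the lower side, as in 0.255% of genes. GLIPR2 was picked by its likeness to a locus chosen for its casein difference, so nothing is read from this separation. Among vehicle steers it overlapped, with 20.6 to 62.8 CPM in Control and 14.6 to 48.3 CPM in Casein steers. PAPSS2, which makes the sulfate donor of sulfotransferases, was named after its values were seen. It was at 299.4 CPM in GLP-2 replicate 3, where ENSBTAG00000026611 was highest, against a median of 35.2 CPM in GLP-2, 11.5 CPM in Casein and 20.2 CPM in Casein + GLP-2 steers, and 90.0 CPM in the highest Control steer.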
